A study of Bos taurus with 6 samples.

Results

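ENPEP and the renin-angiotensin genes around it were followed in bovine granulosa cells after 7 days or 4 days of FSH. The set held 8 genes. They were the aminopeptidases ENPEP, ANPEP and LNPEP, the precursor AGT, the converting enzyme ACE, the receptor ATP6AP2 and the angiotensin receptors AGTR1 and AGTR2. They were read on 9 probes, every probe that the annotation of the array gave to these symbols, of 43794 probes standing for 15216 genes. ENPEP was chosen by its log2 ratio in this same comparison, as one of the largest falls. The other 7 genes were added as its pathway with their array values already known. The log2 ratios of all 8 are therefore given as a description, with no p. Where a member is said to lie past the threshold used for all genes, this is a description too and supports nothing.

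The renin-angiotensin system is a chain of proteases. Angiotensinogen, the product of AGT, is cut to angiotensin I, and ACE trims this to angiotensin II, which acts on the G protein-coupled receptors AGTR1 and AGTR2. The cell-surface aminopeptidase ENPEP, also called aminopeptidase A, removes the first residue of angiotensin II to give angiotensin III, and ANPEP (aminopeptidase N) takes off the next one to give angiotensin IV, whose binding site is LNPEP. ATP6AP2 is a cell-surface receptor of the system and also an accessory part of the vacuolar proton pump. In the cow, angiotensin II acting through AGTR2 on theca and granulosa cells is known as one of the early intrafollicular signals of ovulation.

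The cells came from multiparous beef cows whose follicles had been ablated to start a new wave, after which a progesterone device was inserted. From wave emergence, FSH was given every 12 h for 4 days (conventional FSH group) or for 7 days (long FSH group). All cows then received a luteolytic prostaglandin near the end of FSH, LH after removal of the device, and ovariectomy 24 h after LH. The device stayed in until near the end of FSH, so the lengths of FSH and of progesterone exposure cannot be told apart. Antral and mural granulosa cells of the 3 largest follicles of a cow were pooled, so each cow gave 1 RNA sample, amplified linearly in 2 rounds before labelling. RNA of 3 cows of each group was hybridised in 3 cow pairs, 1 cow of each group on the same array, and each pair was run on 2 arrays with the dyes swapped. The 2 arrays of a pair hold the same RNA and were averaged, so n = 3 cow pairs and each group had 6 readings of a probe.

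Per reading, 41.8% to 51.4% of all probes were above background, a limit set per array and dye at 2 SD over the average of its 153 negative control spots. Across probes, the dye-swapped arrays of pairs 1, 2 and 3 correlated with r = 0.43, 0.65 and 0.24, and the ratios of pair 3 correlated with those of the other pairs with r = 0.16. Values of pair 3 are therefore given apart where a result turns on them. The granulosa markers FSHR, INHA, GATA4, NR5A2 and CDH2 were above background in all 6 readings of both groups and CYP19A1 in at least 5. AMH was above it in 2 long FSH and 5 conventional readings, WT1 in 1 and 2, HSD17B1 in 0 and 2, and FOXL2 in none. Of the 7 granulosa markers tested, 2 passed an unadjusted limma p of 0.05 with at least a 2-fold difference, as did 5.32% of all tested genes. None passed after adjustment. CYP19A1 was lower at -1.81 ± 1.36 and NR5A2 was higher at 1.30 ± 0.66. The dyes of the groups are not settled, because the sample labels contradict the series' design text. The direction used here, that of the design text and of the study's legends, is called likely. Turned, every higher would read lower and every ratio would change its sign, ENPEP included. The deposited table of ratios, with its direction taken from the sample labels, also put ENPEP below 0, at -2.31. Its columns resemble the swapped array of their pair and not the array in their name, so this value does not settle the direction.

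ENPEP was the member with the largest difference, and its signal was lower in the long FSH group in every cow pair. In the conventional cows of pairs 1, 2 and 3 its normalised intensity was 1104, 1390 and 300.7. In the long FSH cows of the same pairs it was 292.3, 113 and 94.8. The groups did not overlap, but the gap was narrow, since the conventional cow of pair 3 lay just above the long FSH cow of pair 1. All 3 long FSH cows lay below all 3 conventional cows for 621 of 9933 tested genes, or 6.25%. The log2 ratio was -1.92, -3.62 and -1.67 in pairs 1, 2 and 3, with a mean of -2.40 ± 1.06 (SD, n = 3). Without pair 2 the mean was -1.79, and its size is uncertain because only 2 of the 6 long FSH readings were above background. A single probe measured ENPEP (EMBV3_07938), so no second probe can be set beside it. In RNA of pooled cells, fewer cells that express a gene and less RNA per cell cannot be told apart.

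The readings before normalisation show the same order within each pair. Background-subtracted intensity of ENPEP in the conventional cow was 1461 in Cy3 and 955 in Cy5 in pair 1, 1120 and 1142 in pair 2, and 347 and 311 in pair 3. All of these were above background. In the long FSH cow it was 335 in Cy3 and 268 in Cy5 in pair 1, both above background, 108 and 109 in pair 2, and 93 and 73 in pair 3. These last 4 readings were below the limit, so the ratios of pairs 2 and 3 rest on a long FSH signal that was not told apart from background. A signal above background in all 6 conventional and at most 2 long FSH readings was found for 74 of 23480 tested probes, and the reverse for 231.

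**Figure D1:**
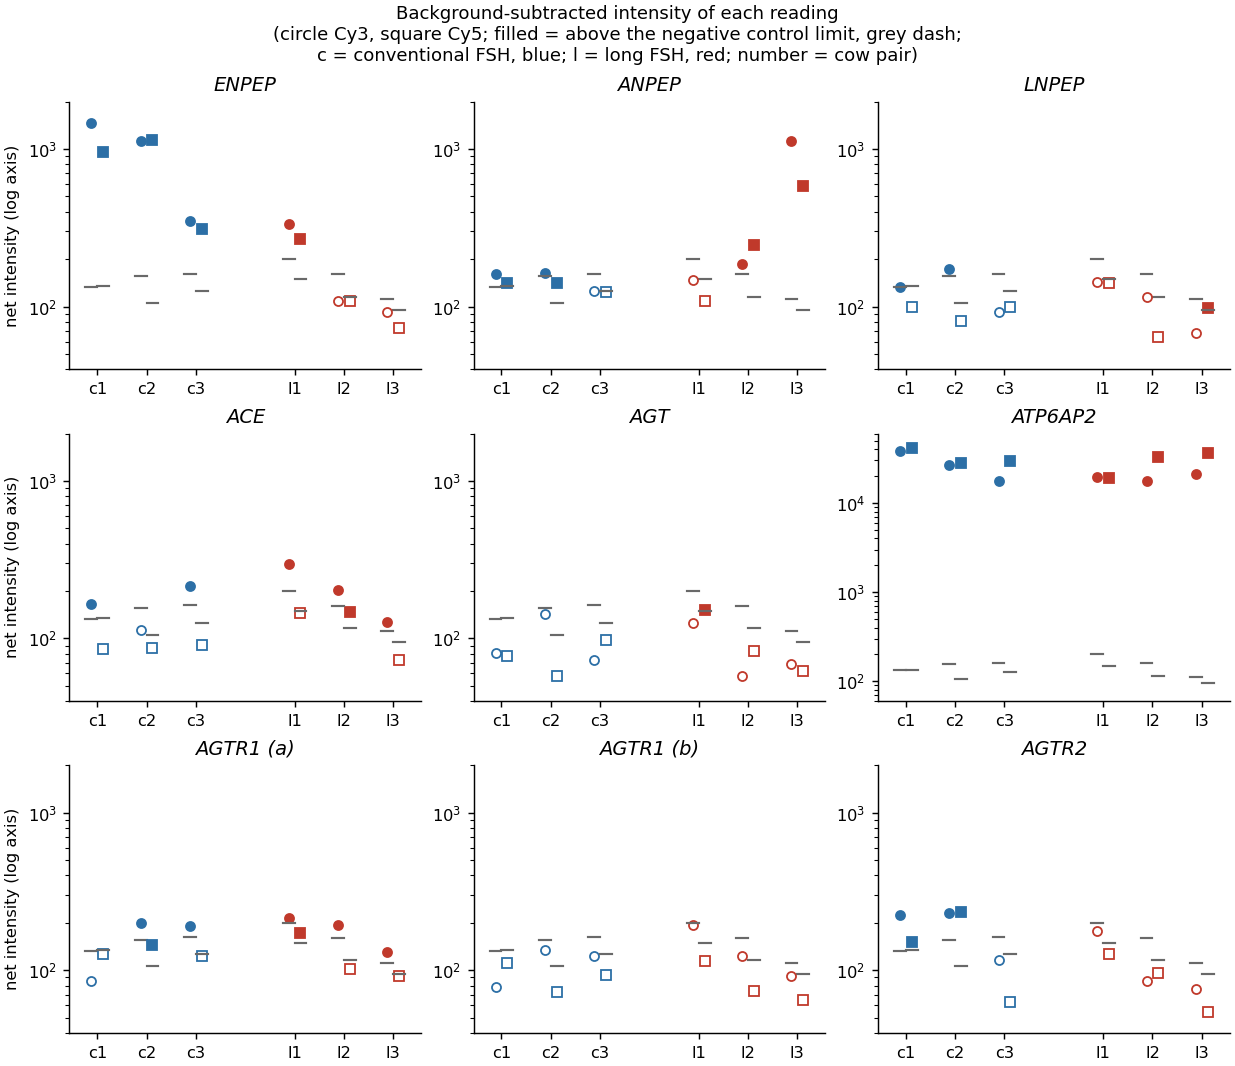
Background-subtracted intensity (log axis) of every reading of the 9 probes, with conventional cows c1 to c3 in blue, long FSH cows l1 to l3 in red, circles for Cy3, squares for Cy5 and a grey dash at the limit of each reading; AGTR1 has 2 probes, (a) and (b). ENPEP readings of the conventional cows were 311 to 1461, against 73 to 335 in the long FSH cows, where 4 of 6 are open symbols below the limit.

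Swapping the dyes did not change the direction for ENPEP. On the 2 arrays of each pair the log2 ratio was -2.07 and -1.77 in pair 1, -3.21 and -4.03 in pair 2, and -1.46 and -1.87 in pair 3. The mean was -2.25 over arrays 1 to 3 and -2.56 over arrays 4 to 6, so both dye orientations gave a similar size. A ratio below 0 on all 6 arrays was found for 463 tested genes, or 4.66%. At a threshold of an unadjusted limma p of 0.05 or less and a difference of at least 2-fold, 197 of 9933 genes were lower (1.98%), 331 were higher (3.33%), and 5.32% passed in all. With adjustment over all genes, limma passed none, the smallest adjusted p being 0.137, and 987 genes had an unadjusted p of 0.05 or less.

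**Figure D2:**
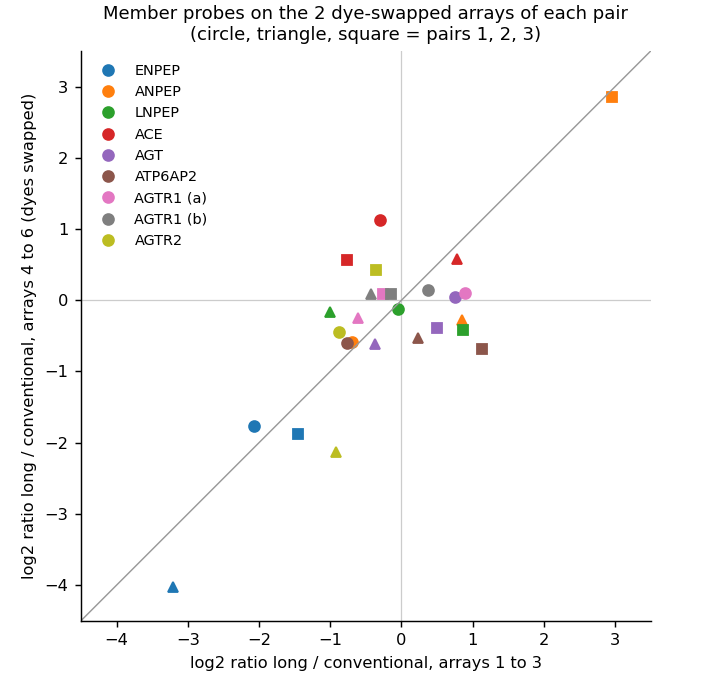
Log2 ratio (long over conventional FSH) of each of the 9 probes on arrays 1 to 3 (x axis) against arrays 4 to 6 with the dyes swapped (y axis), 1 point per probe and cow pair, with the line of equal values. The 3 ENPEP points lie at the lower left near the line, and the ANPEP point of pair 3 lies at 2.96 and 2.86, while most of the other points are close to 0 or change sign with the dyes.

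Pericytes, cells of vessel walls in which this enzyme is also found, were checked through 7 markers, of which 5 had a probe and 3 were tested. MCAM, a surface adhesion molecule, was lower at -1.80 ± 0.45, 1 of 3 where 1.98% of all tested genes were lower. The other 2 did not pass, KCNJ8 at -0.45 ± 0.08 and CSPG4 at -0.21 ± 0.43, and the median was -0.45 against 0.03 over all tested genes. This median is the value of KCNJ8, which had 1 long FSH and 5 conventional readings above background. KCNJ8 was tested only through its conventional readings, so its direction and the median support nothing. The summed background-subtracted intensity of the tested pericyte markers was 4532, 1122 and 876 in the conventional cows of pairs 1, 2 and 3. It was 1250, 492 and 363 in the long FSH cows, lower in each pair though the groups overlapped. A sum weighs bright genes most, and only MCAM was above background in all readings, so the sum is not a result of the list apart from MCAM. The defining markers RGS5 (no reading above background) and PDGFRB (2 long FSH readings and 1 conventional) were at or near background. Endothelial markers had 4 of 9 tested and none past the threshold, nor any at an unadjusted p of 0.05 or less in limma, with a median of -0.26, summed intensities of 414 to 706 in long FSH and 602 to 615.5 in conventional cows, and no reading above background for PECAM1. Of the 4, KDR and CLDN5 were tested only through their conventional readings, so their direction supports nothing. Of 10 theca and stroma markers, 7 were tested, with a list median near 0 (-0.005). LUM was lower at -1.96 ± 1.99, 1 of 7 where 1.98% of all tested genes were lower, but it was above 0 in pair 1 (0.30). The summed background-subtracted intensity of the 7 was 7822 to 11570 in long FSH cows against 14160 to 33330 in conventional cows. Taken singly, 6.25% of all tested genes had all 3 long FSH cows below all 3 conventional cows. This sum too weighs bright genes most. The genes above background in every reading differed, with COL3A1 at 0.36 ± 2.73, ACTA2 at 0.73 ± 0.99 and LUM at -1.96 ± 1.99. The sum is therefore not a result of the list. CYP17A1, the defining theca enzyme, had 2 long FSH readings above background and no conventional one. The part of these cells in the ENPEP result was not tested.

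ANPEP, the aminopeptidase that acts after ENPEP in the chain, did not follow it. Its normalised intensity was 150.5, 179.8 and 110.4 in the conventional cows and 96.7, 219 and 830.6 in the long FSH cows of pairs 1, 2 and 3. The long FSH cow of pair 3 stood alone, and the other 5 cows lay between 96.7 and 219. The log2 ratio was -0.64, 0.28 and 2.91, with a mean of 0.85 ± 1.84 (SD, n = 3), so the spread between pairs exceeded the mean. In pair 3 both dye orientations gave a high ratio, at 2.96 and 2.86, with background-subtracted readings of 584 in Cy5 and 1129 in Cy3. Without pair 3 the mean was -0.18. Signals above background were found in 4 of 6 readings of each group.

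Leukocytes of the myeloid line also carry ANPEP, as the surface antigen CD13, and leukocyte markers were high in the same pair. Of 12 markers listed, 8 were tested, and their median log2 ratio in pairs 1, 2 and 3 was 0.14, 0.02 and 2.40. In pair 3, 7 of the 8 were at 1 or more, over a range of -0.57 to 3.47. Over the 3 pairs all 8 means were above 0, with a median of 0.76, where 5240 of 9933 tested genes were above 0. CD14, CD163, CD3D and AIF1 were tested only through their long FSH readings. The direction of their means therefore supports nothing, and the count of 8 is not a result. TYROBP, an adaptor of immune receptors, was past the threshold at 1.89 ± 1.36, 1 of 8 where 3.33% of all tested genes were higher. It had no conventional reading above background, so its mean was at least 2.45-fold higher. It was tested only through its long FSH readings, so its direction supports nothing. The summed background-subtracted intensity of the 8 markers was 3608, 3552 and 8966 in the long FSH cows and 3114, 2096 and 6564 in the conventional cows. Both cows of pair 3 had the highest sum of their group. A sum weighs bright genes most, and only PTPRC, at -0.57 in pair 3, was above background in every reading. The sum therefore does not show that the other markers were high in the conventional cow of pair 3. The myeloid markers CSF1R and ITGAM had no reading above background in either group, ITGB2 had 1 long FSH reading and the B cell marker CD79A had 1 conventional reading. The part of leukocytes in the ANPEP value of pair 3 was not tested.

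**Figure D3:**
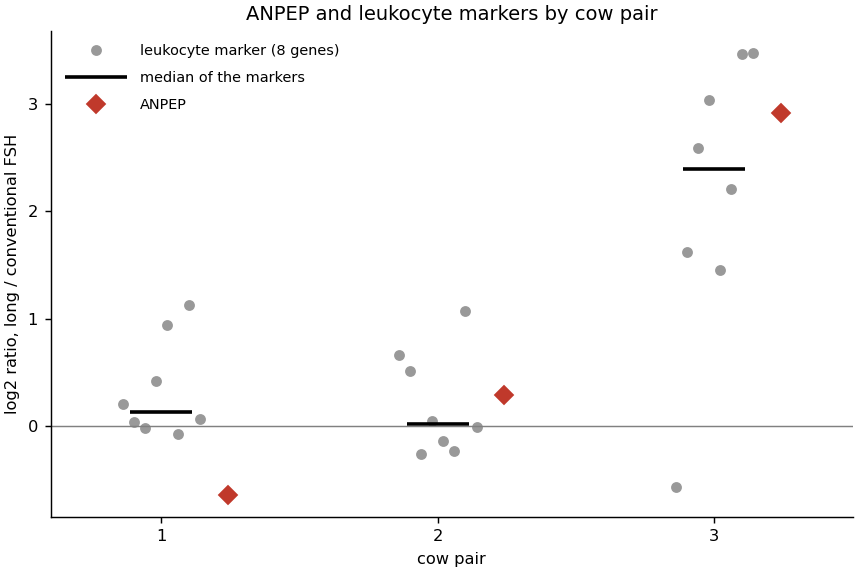
Log2 ratio (long over conventional FSH, y axis) of the 8 tested leukocyte markers (grey), their median (black bar) and ANPEP (red diamond) in each cow pair (x axis). In pair 3 the marker median was 2.40 and ANPEP was 2.91, whereas in pairs 1 and 2 the medians were 0.14 and 0.02.

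LNPEP, the insulin-regulated aminopeptidase that binds angiotensin IV, was near background. Its probe was above background in 1 of 6 long FSH and 2 of 6 conventional readings and was not tested. Normalised intensity was 108.7, 87.01 and 104.9 in the long FSH cows of pairs 1, 2 and 3 and 115.3, 130.1 and 90.05 in the conventional cows, with overlap of the groups. Its log2 ratio was -0.15 ± 0.40 (SD, n = 3), a value set mostly by readings below the limit.

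Of the upstream members, AGT, the precursor of all angiotensins, gave no measurable level. A single long FSH reading and no conventional one was above background. Normalised intensity was 102.7, 70.76 and 84.47 in the long FSH cows of pairs 1, 2 and 3 and 77.83, 99.4 and 81.27 in the conventional cows. The groups overlapped, and no fold is given.

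ACE, the carboxydipeptidase that makes angiotensin II, was dim in both groups. Its probe was above background in 4 of 6 long FSH and 2 of 6 conventional readings. It was thus tested only through its long FSH readings, and the direction of its ratio supports nothing. Normalised intensity was 160.5, 176.7 and 120.9 in the long FSH cows and 120.3, 110.5 and 129.4 in the conventional cows of pairs 1, 2 and 3. The groups overlapped through pair 3, where the conventional cow was higher. By pair the log2 ratio was 0.42, 0.68 and -0.10, a mean of 0.33 ± 0.40 (SD, n = 3). The value moved with the dyes, from -0.09 over arrays 1 to 3 to 0.76 over arrays 4 to 6, and 5 of the 6 readings above background were in Cy3.

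ATP6AP2, the receptor shared with the proton pump, was the one member above background in all 6 readings of both groups. Normalised intensity was 21030, 25200 and 27390 in the long FSH cows and 33810, 27970 and 23440 in the conventional cows of pairs 1, 2 and 3. The long FSH cow was lower in pairs 1 and 2 and higher in pair 3, and the groups overlapped. The log2 ratio was -0.20 ± 0.46 (SD, n = 3). Strong signal did not make this ratio exact, because the dye orientations disagreed in pair 2 (0.23 and -0.53) and in pair 3 (1.13 and -0.68). In pair 1 they agreed, at -0.77 and -0.60.

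The other parts of the vacuolar proton pump, which acidifies endosomes and lysosomes and with which ATP6AP2 is assembled, were tested as a separate list. All 14 were tested, none passed the threshold in limma, and 1 had an unadjusted p of 0.05 or less. That gene was ATP6V1A, the catalytic subunit, at 0.92 ± 0.57 with an adjusted p of 0.400 in limma, and its other probes gave 0.39 and -0.36. The list median was -0.11, against -0.20 for ATP6AP2 and 0.03 over all tested genes. The second accessory subunit, ATP6AP1, was at 0.06 ± 0.25.

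AGTR2, the receptor type tied to bovine ovulation, had the second lowest ratio after ENPEP. Background-subtracted readings in the conventional cow were 223 in Cy3 and 151 in Cy5 in pair 1 and 230 and 236 in pair 2, all above background, but 117 and 63 in pair 3, both below it. In the long FSH cows all 6 readings, from 54 to 177, were below their limits. Normalised intensity was 117.2, 91.98 and 83.79 in the long FSH cows and 185.1, 264 and 82.14 in the conventional cows, so the groups overlapped through the conventional cow of pair 3. The log2 ratio was -0.66, -1.52 and 0.03 in pairs 1, 2 and 3. The mean of -0.72 ± 0.78 (SD, n = 3) was about as large as its spread. Since no long FSH reading was above background, the ratio is only a bound. It was 1.33-fold lower, from the conventional mean against the higher of the dimmest detected signal and the probe's own. This bound is one of the mean and does not hold in pair 3, where neither cow had a reading above background. The probe was tested only through its conventional readings, so the direction of its ratio supports nothing. Both dye orientations gave -0.72, and 5 of 6 arrays were below 0.

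AGTR1, the receptor that carries most known pressor actions of angiotensin II, showed no difference beyond its spread. Probe (a), EMBV3_39561, was above background in 4 of 6 long FSH and 3 of 6 conventional readings. Normalised intensity was 147.4, 144.8 and 134.2 in the long FSH cows and 104.7, 195.4 and 142.2 in the conventional cows, so the 3 long FSH values lay inside the range of the conventional ones. Its log2 ratio was -0.01 ± 0.47 (SD, n = 3). Probe (b), EMBV3_21782, had no reading above background in either group, so the ratio plotted for it is one of background readings.

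**Figure D4:**
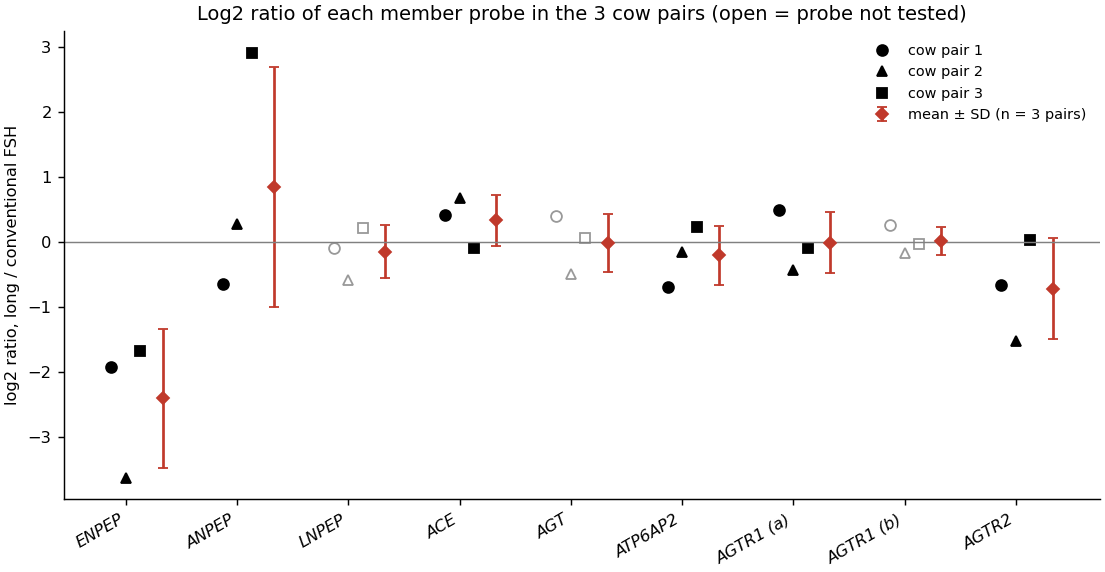
Log2 ratio (long over conventional FSH, y axis) of each of the 9 probes in cow pairs 1, 2 and 3 (black, or open grey where the probe was not tested and the ratio is mostly one of background readings), with the mean and SD of the 3 pairs in red. ENPEP lies between -3.62 and -1.67 in the 3 pairs, whereas every other tested member has pairs on both sides of 0.

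Of the 8 members, 6 had a tested probe. ENPEP alone was past the threshold, and since it was chosen for this contrast, the count of 1 of 6 is read against nothing. The median of the 6 ratios was -0.11, against 0.03 over all tested genes. None of the other 5 had a ratio of 1 sign in all 3 pairs. The share of all tested genes that kept 1 sign is not given here, so this count too is read against nothing. For AGTR2 the sign changed only at 0.03 in pair 3, where neither cow had a reading above background. The difference between ENPEP and the other 5 genes was not tested.

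The rest of the pathway was taken from a list of 14 genes, written by function but with earlier results of these data known. A probe carried the symbol of 8 of them, and the others were not analysed here. Of the 6 tested genes none passed the threshold in limma, and none had an unadjusted p of 0.05 or less. The list median was 0.08. The smallest p was that of PRCP, a lysosomal carboxypeptidase that also trims angiotensin II, at 0.49 ± 0.76 (adjusted p = 0.631 in limma), above background in every reading. CTSA, another lysosomal carboxypeptidase, was at 0.27 ± 0.27, with 5 long FSH readings above background against 1. MME (neprilysin), which cuts angiotensin I to the shorter heptapeptide, was at -0.20 ± 0.40, with adjusted p-values in limma of 0.672 for CTSA and 0.761 for MME. KLK1, NLN and PREP were between 0.05 and 0.11, and CPA3 and THOP1 were too dim to be tested. CTSA and KLK1 were tested only through their long FSH readings and MME only through its conventional ones. The direction of these ratios therefore supports nothing.

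ENPEP, ANPEP and LNPEP belong to the M1 family of zinc aminopeptidases, and its other members were compared as a second list. Of 9 genes, 6 had a probe, all of them tested. None passed the threshold in limma or had an unadjusted p of 0.05 or less. Above 0 were 4 of the 6, where 5240 of 9933 tested genes were above 0. The median was 0.28, against 0.03 over all tested genes. ERAP2, RNPEP and RNPEPL1 were tested only through their long FSH readings, so their direction supports nothing. NPEPPS, the cytosolic puromycin-sensitive enzyme, was at 0.41 ± 0.14 on its brightest probe (adjusted p = 0.568 in limma), but its other probes gave 0.24 and -0.17. ERAP1, which trims antigenic peptides in the endoplasmic reticulum, was at 0.38 ± 0.10 (adjusted p = 0.576 in limma), above 0 in all 3 pairs. Its relative ERAP2 was above background in 3 long FSH readings and no conventional one, and was at least 1.02-fold higher, a bound that allows almost no difference (adjusted p = 0.622 in limma). LTA4H, also a leukotriene-making hydrolase, was at -0.32 ± 0.62, and RNPEP and RNPEPL1 were at 0.21 and -0.08. LTA4H was thus the lowest of the 6, and ENPEP was at -2.40.

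Receptor partners and the kinin genes, whose peptides ACE also degrades, were mostly too dim. Of 8 genes 7 had a probe, and only AGTRAP, which promotes internalisation of AGTR1, was tested. On its brightest probe the ratio was -0.21 ± 0.16 (adjusted p = 0.722 in limma). AGTRAP had 4 probes, of which 2 were tested. The second tested probe gave -0.13 ± 0.38, with pairs on both sides of 0.

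**Figure D5:**
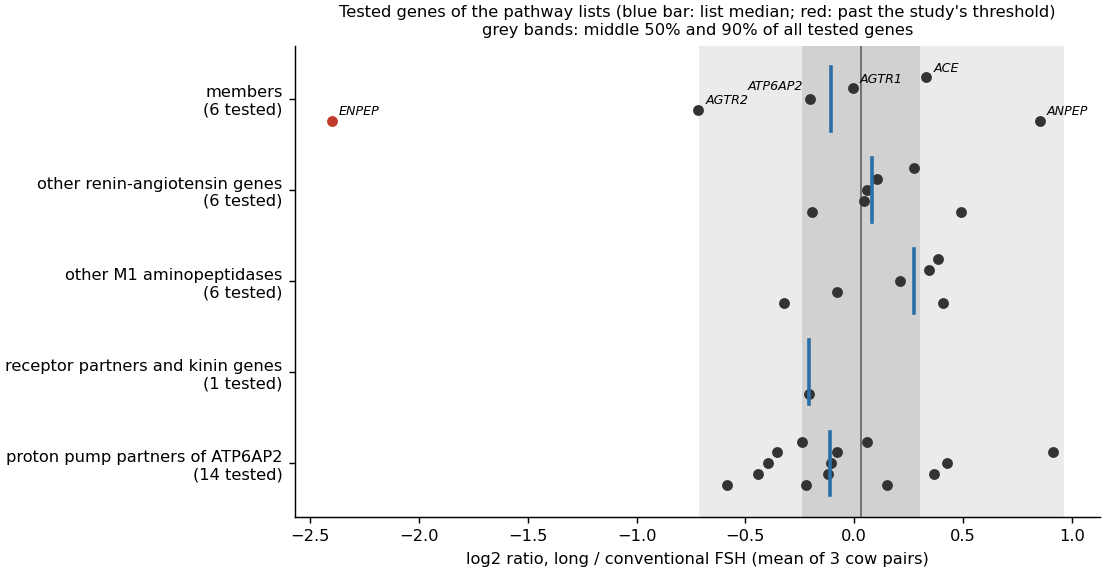
Log2 ratio (long over conventional FSH, mean of 3 cow pairs, x axis) of each tested gene of the members and 4 pathway lists, with the list median as a blue bar and the range of the middle 50% and 90% of all tested genes in grey. ENPEP at -2.40 is the one red point, past the threshold, and the list medians lie between -0.21 and 0.28.

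Finally, the genes whose level over the 6 cows was most like that of ENPEP were looked up by Pearson correlation. The cows fall into 2 groups, and 2 cows share an array, so a gene that was lower in long FSH has a high correlation for that alone. The highest were MIS18A, needed for building centromeres (r = 0.992), PIGB, of glycosylphosphatidylinositol anchor synthesis (r = 0.991), LOC100295130 (r = 0.991), IDI1, an isomerase of sterol synthesis (r = 0.989), and the transcription factor HAND1 (r = 0.989). Their log2 ratios were -2.27 for MIS18A, -1.58 for PIGB, -1.75 for LOC100295130, -2.07 for IDI1 and -0.26 for HAND1, all with readings above background throughout. For all 5, as for ENPEP, the ratio was lowest in pair 2, with HAND1 at a much smaller size. They were picked by these same levels, so a shared pattern over the pairs comes with the choice and supports nothing. Among the members, AGTR2 came closest with r = 0.905, a value mostly of readings below background in the long FSH cows. Of 9932 genes, 259 (2.61%) had an r of 0.9 or more, and the median was -0.06. The other tested members had r = 0.465 for ATP6AP2, 0.121 for AGTR1, -0.513 for ANPEP and -0.578 for ACE.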

How the data were processed

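The intensity values are the median foreground and local background of each spot in both dyes, deposited by the authors as written by their scanner software. The deposited log2 ratios, which the authors had corrected for background, floored at 0.5 and normalised by loess and quantiles, served as an alternative, since each column resembles the swapped array of its pair (r = 0.84 to 0.91, against -0.69 to -0.39 for the array in its name). Their column medians were -0.003 to 0. The genome build of the probes is not given in the sources used here.

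The ratios used here came from background-subtracted intensities, with 0.5 in place of values that were not above 0, after loess within each array. Quantile normalisation of the mean intensity gave the levels per cow and left the ratios unchanged. Limma 3.58.1 in R 4.3.3 was fitted to the 3 pair means, with Benjamini-Hochberg adjustment over all 23480 tested probes or, for all values by gene, 9933 genes. Testing a probe required a signal above background in 3 or more of the 6 readings of one group. Each gene is represented by the tested probe of highest intensity. Limits of a reading were 95.2 to 200.3. Symbols came from the array's annotation, 21790 probes having a single symbol, with 982 older symbols renamed. The fit was tested on simulated data with 200 changed probes.

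The members and the gene lists were chosen with earlier results of these data known. Named were all members, the genes past the threshold in the 2 lists of other renin-angiotensin genes and M1 aminopeptidases or else the 3 with the smallest p, and the 5 genes most like ENPEP; other genes of these and the remaining lists were named after their values were seen. The number of arrays limits the precision. Cows of a pair deviated together from the group means (r = 0.153 to 0.260 across probes, against -0.013 at most between pairs). Pairs 1 and 2 shared slides, and pair 3 was on others. Each slide held a single dye orientation, so slide and orientation cannot be told apart. RT-PCR and hormone data were not analysed here.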

Additional observations from a re-analysis of the deposited data

How the results depend on the processing

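The log2 ratio of ENPEP stayed below 0 under all other settings, from -2.77 to -1.79 with a pair or array left out, and was 2.40 with the sign turned. As a description only, since ENPEP was chosen by this contrast, the number of members past the threshold was 1 (ENPEP), and 1 to 2 with a pair or array left out, the second being AGTR2 without pair 3. The other renin-angiotensin genes and M1 aminopeptidases gave 0 under every setting. The ratios of the other 7 members, of which AGT and LNPEP rest mostly on background readings, moved by less than their SD between pairs under every setting, apart from those of ACE and AGTR2 with the sign turned. With the 6 arrays and the cow pair as replicate block (correlation 0.145), the number of members was again 1, and 1136 probes passed in place of 924, of which 625 passed after adjustment in place of 0. The number of probes past the threshold was 603 with low signals raised to the negative control limit (319 higher and 284 lower, in place of 582 and 342), 548 with the deposited table (with its direction taken from the sample labels), 419 with trend and robust options (136 higher and 283 lower) and 1983 at 1.5-fold. It was 844 to 1810 with a pair or array left out, the highest without pair 3, when 90 passed after adjustment. The cause of these differences was not tested.

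Most members lay near background, so for LNPEP, AGT, AGTR1 and the long FSH level of AGTR2 a difference was not detectable at this signal, which does not show that levels were equal. ENPEP was measured on a single probe and in 3 cows of each group.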
